A study of Mus musculus with 12 samples.

Results

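In 103 stretches of the mouse autosomes, each a fixed window of 100 kb, the transcription factor MyoD had 10 or more binding sites. These dense clusters were chosen by the number of MyoD sites alone: each of the 19 autosomes was divided into windows of 100 kb by the start of the site, and windows with at least 10 sites of the MyoD list were kept. They hold 1148 of the 24935 MyoD sites, and the members described here are these together with the sites of the other lists that start in the same windows: 806 of 31458 NeuroD2 sites, 594 of 14375 sites of the chimera, 731 of 27045 sites of the WC mutant and 670 of 22462 sites of the WCS mutant. That makes 3949 of 120275 sites. Because the MyoD count picked the windows, the count, spacing, score and width of MyoD sites in them are given as descriptions.

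All libraries come from P19 cells, a mouse embryonal carcinoma line that can form muscle or neurons in culture, and were made by chromatin immunoprecipitation and sequencing (ChIP-seq). The 5 transduced groups carry MyoD, NeuroD2, MD(ND2bHLH), which is MyoD with the bHLH part of NeuroD2 and is called the chimera here, MD(ND2bHLH)WC, called WC, and MD(ND2bHLH)WCS, called WCS. What the letters WC and WCS stand for is not stated in the labels. Infection took place with polybrene at 8 µg/ml. Fresh medium followed at 24 h, and from 48 h the cells were kept in a neuronal medium with B27. Each group has 2 libraries that differ in antibody, 6196 and 6975 for MyoD and the 3 chimeric proteins and 1165 and 1240 for NeuroD2, and both libraries share 1 deposited list. Untransduced P19 cells, precipitated with antibodies 1240 and 6975, were the study's negative control and are not analysed here. No spread between replicates can be given, nor any test over samples. Neither the promoter of the constructs nor the level of each protein in the cells is stated in the labels.

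MyoD and NeuroD2 belong to the basic helix-loop-helix (bHLH) family. These proteins bind DNA as dimers, usually with an E protein as partner, at short E-box motifs that occur very often in the genome. MyoD drives the skeletal muscle programme and can turn many cell types into muscle, and NeuroD2 drives neuronal differentiation. Genes under the control of such factors often have several binding sites in their neighbourhood, in the promoter and in distant enhancers, so a dense group of sites can mark the surroundings of a strongly regulated gene. Coordinates are in mm9, counted from 1. No genome or annotation of that build was used, so neither genes nor sequences were placed in the clusters.

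The clusters covered 10.3 Mb and made up 0.993% of the 10370 autosomal windows with a MyoD site, or 0.66% of the 15611 windows with a site of any list. They contained 4.60% of the autosomal MyoD sites. Of the 103, 45 windows had 10 MyoD sites, 27 had 11 and the fullest had 15. Just below it were 51 windows with 9 sites, whose medians of 6 NeuroD2, 4 chimera, 6 WC and 5 WCS sites lay close to those of the windows with 10, which were 7, 5, 6 and 6. Chromosome 2 had 14 clusters, chromosome 11 had 12 and chromosome 6 had 10, whereas chromosome 13, with 844 MyoD sites, had 0. As a share of the windows with a MyoD site on the same chromosome, clusters made up 1.77% on chromosome 11, 1.65% on chromosome 2 and 1.60% on chromosome 6, against 0.287% on chromosome 16 and 0.342% on chromosome 7. Of the 103 windows, 8 touched another cluster, in 4 pairs, and no run of 3 was found.

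The other 4 proteins had more sites in these windows than in other windows with a MyoD site. The rule asks for 10 or more MyoD sites in each window and sets no limit for the other lists, so the MyoD count is a description only. The median window held 7 NeuroD2 sites (range 1 to 19), 5 chimera sites (0 to 15), 7 WC sites (0 to 18) and 6 WCS sites (0 to 18), against 11 MyoD sites (10 to 15). Other windows with a MyoD site had on average 2.32 MyoD, 2.20 NeuroD2, 1.20 chimera, 1.96 WC and 1.64 WCS sites. A window without a chimera site was found 3 times, without a WC site 2 times and without a WCS site 1 time, and each window had at least 1 NeuroD2 site.

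**Figure D1:**
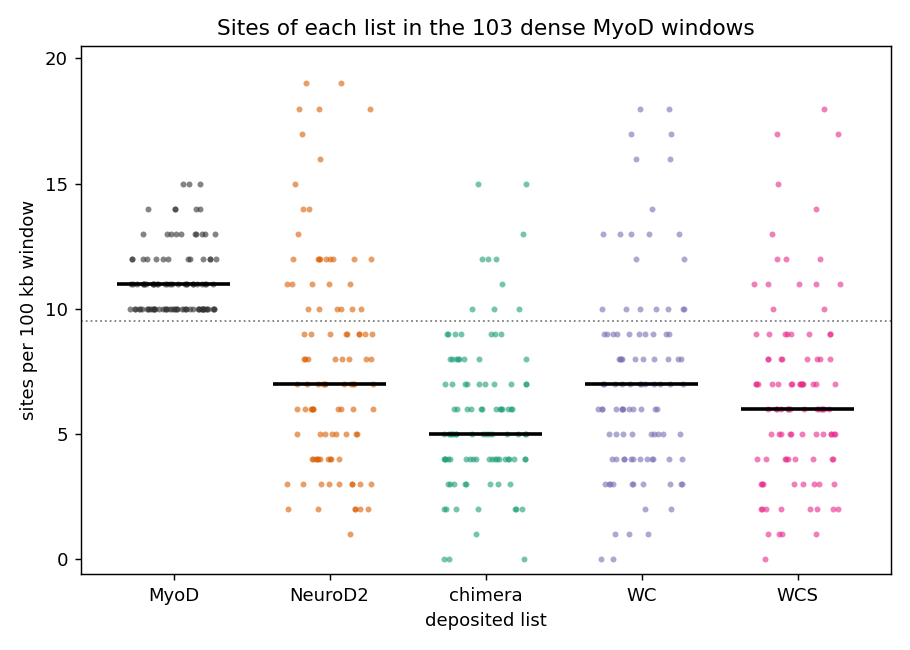
Number of sites per window of 100 kb (y axis) in each of the 5 lists (x axis) for the 103 dense MyoD windows. Each point is a window, the black bar is the median (11, 7, 5, 7 and 6) and the dotted line marks the limit of 10 sites, which the rule sets for MyoD alone.

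Relative to list length, the chimera came closest to MyoD. The clusters held 4.13% of the autosomal chimera sites (95% interval 3.81 to 4.47%), 3.03% of WCS sites (2.81 to 3.27%), 2.74% of WC sites (2.55 to 2.95%) and 2.61% of NeuroD2 sites (2.43 to 2.79%). These intervals are exact Clopper-Pearson intervals. Like the others given here they cover counting error only and treat neighbouring sites as independent, which they may not be. The interval of the chimera lies above those of the other 3. The intervals of NeuroD2 and WC overlap, as do those of WC and WCS, whereas those of NeuroD2 and WCS do not. The rule picks windows rich in MyoD sites and so favours a list that shares many sites with MyoD. Of all autosomal chimera sites 57.3% overlap a MyoD site, against 28.4% for WCS, 26.9% for WC and 20.8% for NeuroD2. The order of the 4 lists is therefore a description only. For every 100 MyoD sites there were 51.7 chimera sites in the clusters and 57.9 elsewhere on the autosomes, against 70.2 and 126.5 for NeuroD2. The MyoD and chimera lists have no site on chromosome X, where the other 3 lists together have 1335, so a difference in how the lists were made cannot be told apart from the protein.

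A window dense in MyoD was often dense in another list. With 10 or more sites as the limit for each list, 31 of the 103 windows were dense in NeuroD2, where 1.16% of all windows with a site are. The count was 21 for WC (0.596% of all windows), 16 for WCS (0.436%) and 10 for the chimera (0.0961%). Seen from the other lists, the shared windows were 66.7% of the 15 dense chimera windows, but 17.1% of the 181 dense NeuroD2 windows, 22.6% of the 93 dense WC windows and 23.5% of the 68 dense WCS windows. A limit of 10 sites is harder to reach in a short list. The chimera list has 14375 autosomal sites and the NeuroD2 list 30888. Of these, 57.3% of chimera and 20.8% of NeuroD2 sites overlap a MyoD site. The part of list length and of this overlap in the percents of shared windows was not tested. NeuroD2 had more sites than MyoD in 18 clusters, WC in 13, WCS in 7 and the chimera in 4.

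The number of NeuroD2 sites rose and fell with that of the mutants from cluster to cluster. Across the 103 windows, Spearman's rho was 0.87 for WC and WCS, 0.82 for NeuroD2 and WC, 0.78 for NeuroD2 and WCS and 0.60 for NeuroD2 and the chimera. With MyoD, whose counts the rule confines to 10 to 15, it was between 0.16 for NeuroD2 and 0.23 for the chimera. These are descriptions: the windows share the same libraries, and 1 list supplies each count.

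All 5 lists fell off steeply at the border of the clusters. The first neighbouring windows had a mean of 3.97 MyoD sites against 11.1 in the clusters. The rule itself makes this step by taking only windows with 10 or more as clusters, and such windows are left out of the neighbours. NeuroD2 went from 7.83 to 3.96, the chimera from 5.77 to 2.30, WC from 7.10 to 3.53 and WCS from 6.50 to 3.02. These lists did not enter the rule, but their counts are not independent of it. Many of their cluster sites lay on a MyoD site, 47.9% for NeuroD2. At a distance of 1000 kb the means were 2.58 MyoD, 2.69 NeuroD2, 1.42 chimera, 2.33 WC and 1.93 WCS sites. For each list the first neighbours thus lay between the clusters and the windows at 1000 kb, and nearer to the latter.

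**Figure D2:**
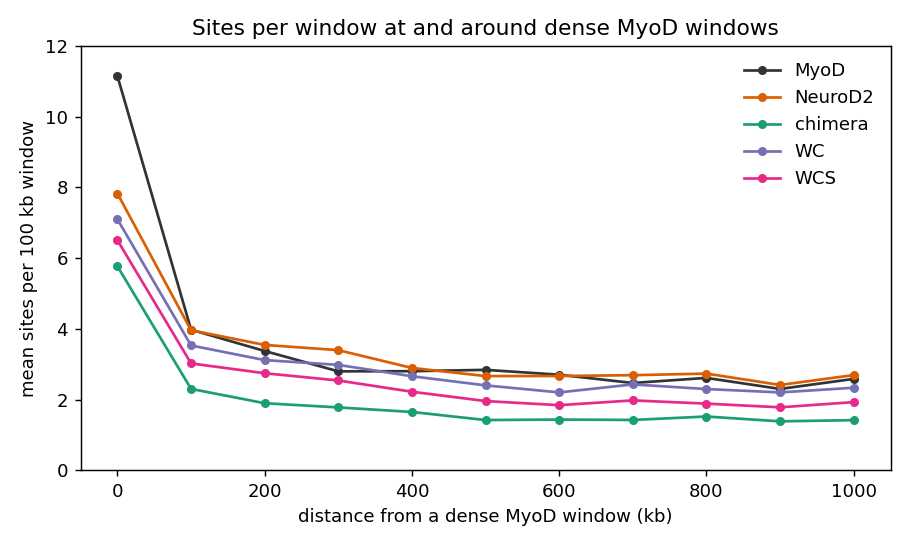
Mean number of sites per window of 100 kb (y axis) in the 103 dense MyoD windows (distance 0) and in windows up to 1000 kb away on either side (x axis), with cluster windows left out of the flanks. Every list drops from the cluster to the first neighbour, NeuroD2 from 7.83 to 3.96 sites.

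Site by site, MyoD sites in the clusters were overlapped more often by each of the other proteins than MyoD sites elsewhere. An overlap was counted when the deposited intervals shared at least 1 base. The other lists were also denser in the clusters. NeuroD2 sites covered 3.26% of the bases there and 0.848% in other windows with a MyoD site. For the chimera it was 3.85% and 0.621%, for WC 2.99% and 0.759%, and for WCS 2.60% and 0.598%. A denser list meets more MyoD sites by position alone, and the part of density in the differences below was not tested. NeuroD2 overlapped 392 of the 1148 cluster sites, or 34.1% (31.4 to 37.0%), where 25.7% of all autosomal MyoD sites are overlapped. Outside the clusters its share was 25.3%, so the clusters were 8.80 percentage points higher (Newcombe interval 6.06 to 11.7). The chimera overlapped 455 sites, or 39.6% (36.8 to 42.5%), against 33.5% of all MyoD sites, and was 6.44 points above its share elsewhere (3.58 to 9.36). WC overlapped 390, or 34.0% (31.2 to 36.8%), against 28.8% of all, a difference of 5.46 points from elsewhere (2.72 to 8.31). WCS overlapped 370, or 32.2% (29.5 to 35.0%), against 25.1% of all, a difference of 7.42 points (4.72 to 10.2).

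The score and the width of the sites moved with this difference. With the sites elsewhere weighted to the scores of the cluster sites, the difference was 7.53 points for NeuroD2 (4.79 to 10.4), 6.14 for WCS (3.44 to 8.95), 3.96 for the chimera (1.10 to 6.88) and 3.88 for WC (1.14 to 6.73). Cluster MyoD sites had a median width of 391 bp against 357 bp elsewhere, and chimera sites 577 against 426 bp. Weighting to the widths of the cluster sites instead gave 5.62 points for NeuroD2 (2.88 to 8.47) and 4.32 for WCS (1.62 to 7.13). It was 2.13 points for WC (−0.610 to 4.98) and 1.34 for the chimera (−1.51 to 4.26), both with intervals that include 0. The intervals of weighted differences are the unweighted ones moved along with the difference. Counting an overlap only for centres at most 100 bases apart gave 4.40 points for NeuroD2 (1.95 to 7.02) and 3.23 for WCS (0.828 to 5.80). It gave 1.67 for WC (−0.793 to 4.30) and 0.400 for the chimera (−2.16 to 3.11), again with intervals that include 0. Binned by the number of MyoD sites in the window, the NeuroD2 share went from 21.2% (20.1 to 22.5%) in windows with 1 site through 26.3% in windows with 4 sites and 29.5% (27.8 to 31.2%) in windows with 7 to 9 sites to 34.1% in the clusters, so the clusters are the upper end of a gradient. Median MyoD width went from 334 to 391 bp over the same bins and the median score from 9.72 to 11.99. What part width, score and the density of the other lists have in the gradient over bins was not tested.

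**Figure D3:**
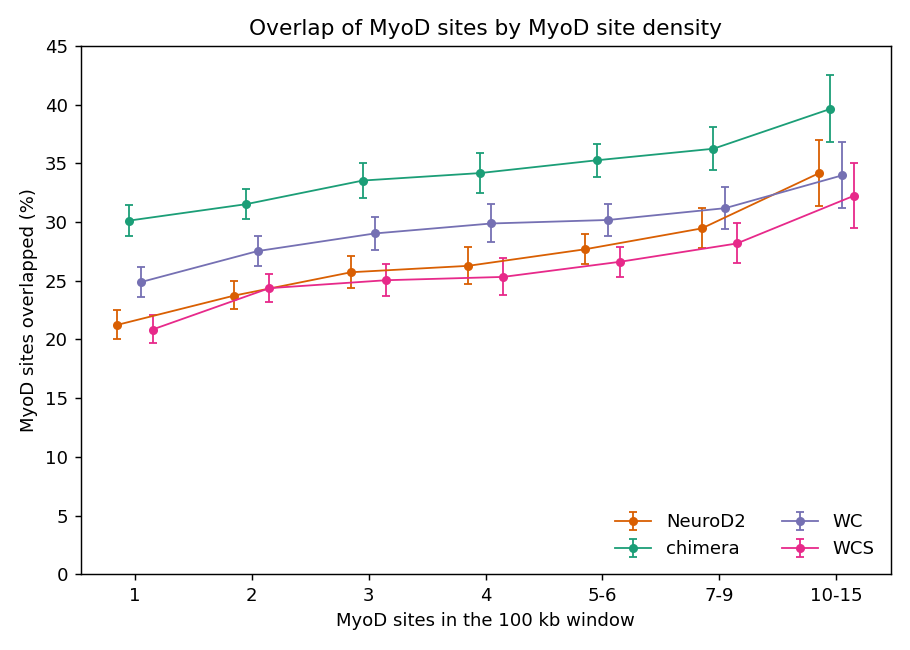
Percent of MyoD sites overlapped by a site of each other list (y axis), by the number of MyoD sites in the window of 100 kb (x axis), with exact 95% intervals as bars. All 4 lists are lowest for windows with 1 MyoD site and highest for the clusters of 10 to 15 sites, where NeuroD2 reaches 34.1%.

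Within a class of MyoD sites, the chimeric proteins showed no difference between clusters and the rest of the autosomes beyond counting error. Among cluster sites without NeuroD2 overlap, 24.5% were held by the chimera, 9.52% by WC and 8.07% by WCS, against 22.3%, 10.4% and 7.02% elsewhere. The differences were 2.19 points (−0.800 to 5.44), −0.832 points (−2.78 to 1.51) and 1.05 points (−0.726 to 3.24). Among cluster sites with NeuroD2 overlap, the chimera held 68.9%, WC 81.1% and WCS 78.8%, against 65.4%, 82.0% and 77.2% elsewhere, with differences of 3.50 (−1.40 to 8.04), −0.878 (−5.15 to 2.82) and 1.60 points (−2.83 to 5.51). Of the 185 cluster sites held by MyoD and the chimera without NeuroD2, WC held 28.6% and WCS 20%, against 28.4% and 17.1% of such sites elsewhere. These intervals leave room for differences of several points, so they do not show that the shares are equal.

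By the lists that held them, the most common group of cluster sites was seen in the MyoD list alone and the next in every list. The remaining sites were shared with some of the other lists but not all. MyoD alone held 536 of the 1148 sites, or 46.7% (43.8 to 49.6%), against 54.0% of MyoD sites elsewhere. All 4 other lists overlapped 230 sites, or 20.03% (17.8 to 22.5%), against 13.9% elsewhere. The next groups were 123 sites with the chimera alone and 56 with NeuroD2, WC and WCS but not the chimera. Sites in all 5 lists had a median MyoD score of 25.04 and those of MyoD alone 8.58, where the score is the authors' value per site, which no source used here names and which serves only to rank sites within a list. Each cluster had a median of 5 sites of MyoD alone (range 0 to 12) and 2 sites in all 5 lists (0 to 10), and 88 of the 103 clusters had at least 1 of the latter.

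Merged over the lists, the sites of the clusters formed 1651 regions. Of these, 225 or 13.6% were in all 5 lists, where 5.92% of all merged autosomal regions are. Those that NeuroD2 shared with both mutants but with neither MyoD nor the chimera made up 7.45%, against 12.6% elsewhere, and regions of NeuroD2 alone 7.03%, against 17.3%. Since the windows were picked for MyoD sites and a region in all 5 lists must hold MyoD, the rule raises the share in all 5 lists and lowers that of regions without MyoD, and all of these shares are descriptions. The comparison among MyoD sites alone is the one given above, 20.03% against 13.9%.

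The MyoD site with the highest score in a cluster was usually also in the other lists, and the one with the lowest score was usually not. The leading site of the 103 windows was overlapped by the chimera in 89, by WC in 69, by NeuroD2 in 68 and by WCS in 66. All 4 overlapped it in 55 windows, and none in 10. The site with the lowest score was overlapped by WC in 22 windows, by NeuroD2 and by WCS in 20 each and by the chimera in 19, and by none in 68. The chimera thus went from 86.4% (78.2 to 92.4%) at the leading site to 18.4% (11.5 to 27.3%) at the lowest, and NeuroD2 from 66.0% (56.0 to 75.1%) to 19.4% (12.3 to 28.4%). Overlap also fell with score outside the clusters. Between the top and the bottom of 5 equal score bins, the chimera fell from 65.7% to 15.5% there. NeuroD2 fell from 41.9% to 16.3%. The median MyoD score was 76.7 at the leading, 37.0 at the second, 24.2 at the third and 5.39 at the lowest sites.

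**Figure D4:**
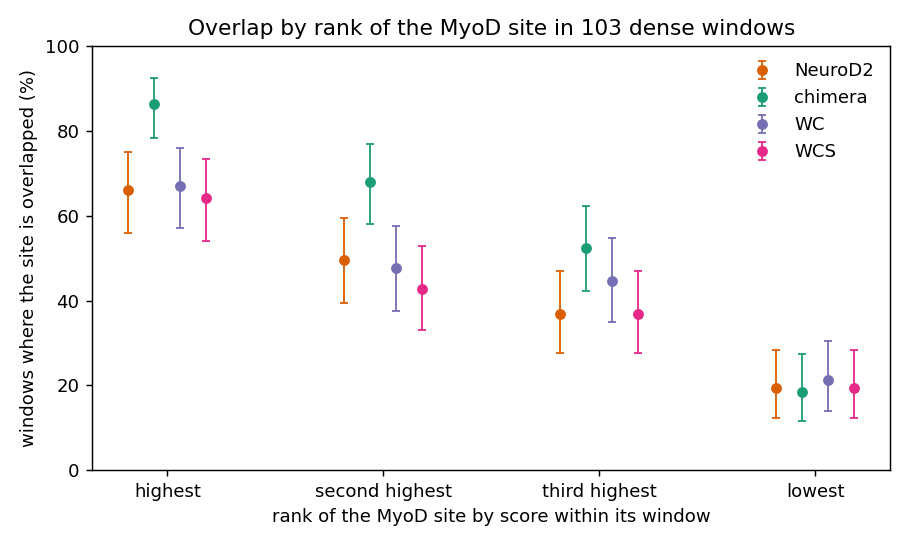
Percent of the 103 dense windows in which the MyoD site of a given rank by score (x axis) is overlapped by each other list (y axis), with exact 95% intervals as bars. The shares fall from the highest site, where the chimera reaches 86.4%, to the lowest, where the 4 lists lie between 18.4% and 21.4%.

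For each list the gap in overlap between cluster sites and others was wider in the highest bin of MyoD scores than in the lowest, but it did not widen evenly in between. All autosomal MyoD sites were divided into 5 equal bins by score. In the top bin, which held 24.7% of the cluster sites and 19.8% of the others, NeuroD2 overlapped 55.5% of the 283 cluster sites (49.5 to 61.4%) against 41.9% of the others (40.4 to 43.3%). WC overlapped 57.6% (51.6 to 63.4%) against 49.4%, WCS 53.0% (47.0 to 58.9%) against 41.8%, and the chimera 73.5% (68.0 to 78.5%) against 65.7%. In the bottom bin the intervals overlapped: NeuroD2 had 19.7% (14.8 to 25.5%) against 16.3% (15.3 to 17.4%), the chimera 17.5% (12.8 to 23.1%) against 15.5% (14.5 to 16.5%), WC 18.4% against 16.8% and WCS 17.1% against 15.1%. In the bins between, cluster sites were overlapped less often than others by WC in the second lowest, 19.3% against 21.2%, and by the chimera in the middle one, 25.6% against 26.7%, with overlapping intervals in both. That the gap differs between bins was not tested.

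Cluster sites came in tight groups. The nearest other MyoD site lay a median of 2070 bp away, edge to edge, against 12153 bp for MyoD sites elsewhere, and 33.9% of cluster sites had a neighbour within 1000 bp against 13.7% elsewhere, as windows with many sites must. In 80 of the 103 windows a pair of sites lay within 500 bp, less than the longest fragments of the sonicated chromatin, which were about 600 bp. Counting such pairs as 1 locus turned the 1148 sites into 1018 loci, with 7 to 14 in a window, and 59 of the windows still had 10 or more. Cluster sites with a neighbour within 1000 bp were overlapped by the chimera in 47.0% of 389 cases (42.0 to 52.1%) and by NeuroD2 in 37.0% (32.2 to 42.0%). For the 109 cluster sites with no neighbour within 10000 bp the shares were 35.8% (26.8 to 45.5%) and 24.8% (17.0 to 34.0%). There was no steady fall with distance: NeuroD2 overlapped 39.9% of cluster sites with a neighbour at 1000 to 3000 bp, and the chimera 33.2% of those with one at 3000 to 10000 bp. MyoD sites outside the clusters also had a higher share within 1000 bp than beyond 10000 bp, 39.3% against 31.2% for the chimera and 29.0% against 23.2% for NeuroD2. The close sites also had higher scores, with a median of 13.9 against 10.4, and were wider, at 414 against 379 bp. In addition, 1 site of another list can cover neighbouring MyoD sites and is then counted for each, so close sites are not separate cases. The part of score, width and such repeat counts in the overlap was not tested.

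From the side of the other lists, 386 of the 806 NeuroD2 sites in the clusters, or 47.9%, lay on a MyoD site, where 20.8% of autosomal NeuroD2 sites do. The share was 73.4% of 594 for the chimera (57.3% of all), 53.1% of 731 for WC (26.9% of all) and 54.9% of 670 for WCS (28.4% of all). These shares are raised by the choice of windows with many MyoD sites. The 420 NeuroD2 sites that missed a MyoD site lay a median of 2785 bp from the nearest one, and 107 of them lay within 1000 bp. Elsewhere such NeuroD2 sites lay a median of 22422 bp from the nearest MyoD site, and 5.87% lay within 1000 bp, against 25.5% in the clusters. The choice of windows with many MyoD sites shortens this distance. In the clusters, NeuroD2 sites off a MyoD site had a median score of 10.2, against 14.2 for those on one. Whether the proteins occupied separate positions, or sites were missed in a list, was not tested.

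Clusters differed widely in how far the proteins shared them. The share of a window's MyoD sites overlapped by NeuroD2 had a median of 30% and ranged from 0 to 80%. It was 50% or more in 20 windows and 0 in 3. The chimera had a median of 40% (0 to 81.8%), while WC (0 to 90.9%) and WCS (0 to 81.8%) each had a median of 30%. Windows with 10 or more NeuroD2 sites and those with 0 to 4 had the same median of 11 MyoD sites, a count that the rule confines. Their median MyoD scores were similar, at 12.7 and 11.7. Their MyoD sites, 355 in 31 windows and 288 in 26, were overlapped by the chimera in 49.3% (44.0 to 54.6%) and 26.7% (21.7 to 32.2%), by WC in 49.0% and 21.9% and by WCS in 42.5% and 22.9%. The windows with 10 or more NeuroD2 sites also held more sites of these lists. The medians were 8 against 4 for the chimera, 10 against 3.5 for WC and 9 against 3 for WCS. What part these numbers have in the overlap was not tested.

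The cluster shared most with NeuroD2 lay on chromosome 8 from 122700001 to 122800000. It held 15 MyoD, 17 NeuroD2, 15 chimera, 16 WC and 14 WCS sites. NeuroD2 and the chimera each overlapped 12 of the 15 MyoD sites, WC 11 and WCS 10, and 10 were in every list. The next were 2 windows of chromosome 1, at 135900001 to 136000000 and at 155500001 to 155600000, where NeuroD2 overlapped 8 of 11 MyoD sites in each. The second of these had the highest median MyoD score of all clusters, 34.2, and 8 of its 11 MyoD sites were in every list.

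The opposite was a cluster on the same chromosome, from 13100001 to 13200000. Its 12 MyoD sites had scores from 5.09 to 26.6, and no other list held any of them: the window had 2 NeuroD2 sites and 1 WCS site at other positions, and 0 chimera and WC sites. On chromosome 11 from 119400001 to 119500000, with 12 MyoD sites, 4 were held by the chimera and 0 by NeuroD2, WC or WCS, although 3 NeuroD2, 1 WC and 1 WCS sites lay elsewhere in the window. Its strongest site scored 280.1. Chromosome 11 from 4600001 to 4700000 had 10 MyoD sites, none of them on its 3 NeuroD2 sites, and 1 each on a chimera, WC and WCS site. On chromosome 3 from 121700001 to 121800000, WC overlapped 0 of 10 MyoD sites and the chimera and WCS 2 each.

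**Figure D5:**
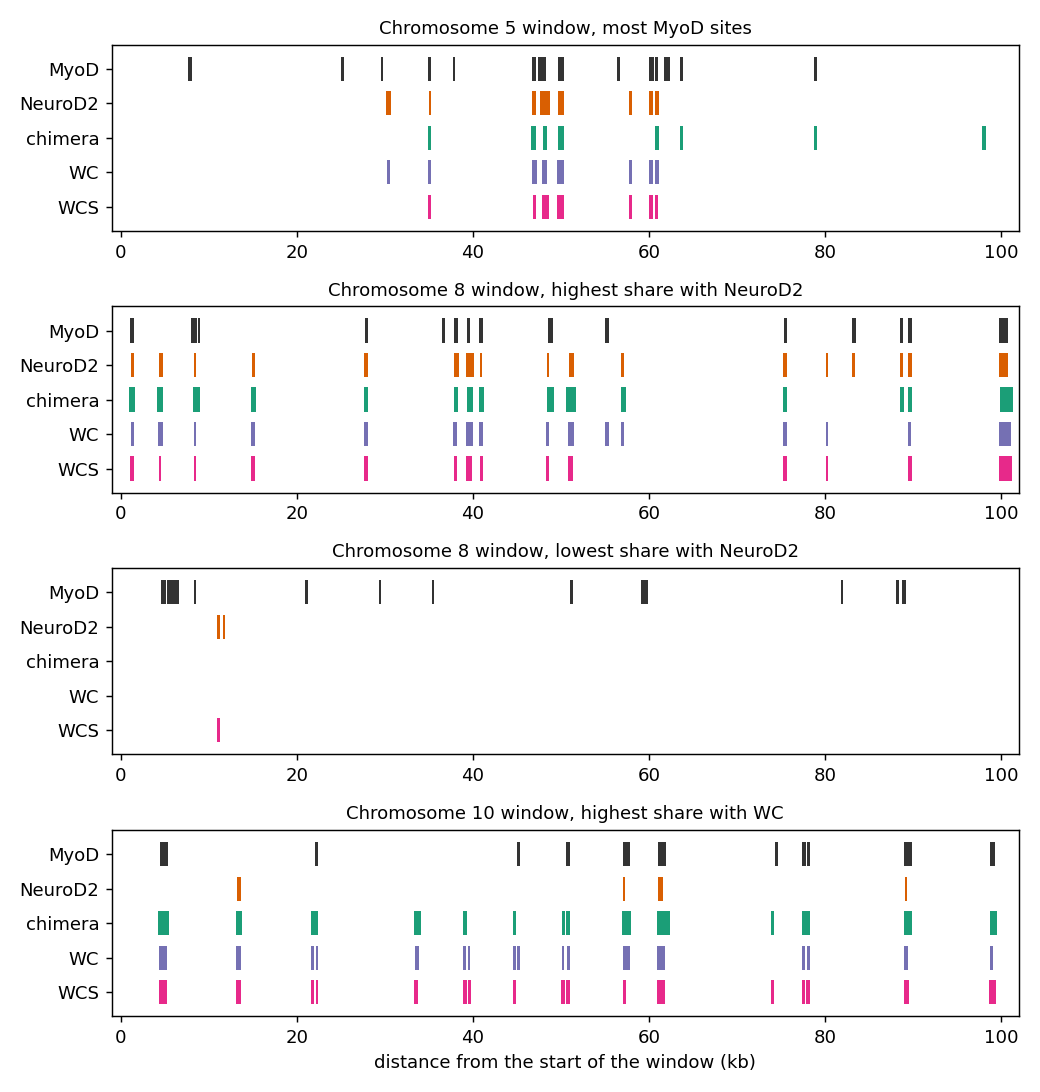
Positions of the sites of the 5 lists (rows) along 4 windows of 100 kb, as distance from the start of the window in kb (x axis); each bar is a site drawn to scale, with a least width of 0.15 kb. The second window, on chromosome 8, has 10 MyoD sites that all other lists share and the third, also on chromosome 8, has none, and in the chromosome 10 window the 3 chimeric proteins have 15 to 18 sites against 4 of NeuroD2.

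The fullest MyoD windows, with 15 sites each, were that chromosome 8 window, a chromosome 5 window at 111600001 to 111700000 and a chromosome 11 window at 120100001 to 120200000. On chromosome 5, NeuroD2, the chimera, WC and WCS each overlapped 7 of the 15 sites, and 5 sites were in every list. On chromosome 11, NeuroD2 overlapped 3, the chimera 2, WC 2 and WCS 3, none was in every list, and 10 of the 15 were in the MyoD list alone. Windows of equal MyoD density thus ranged from 1 to 10 sites of MyoD alone. With 14 MyoD sites, chromosome 1 from 74800001 to 74900000 had 5 sites overlapped by NeuroD2 and 7 by the chimera, and chromosome 2 from 167400001 to 167500000 had 5 and 6.

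A total of 6 clusters were dense in all 5 lists, with 10 or more sites of each. They lay on chromosome 5 from 121000001, chromosome 6 from 128000001, chromosome 8 from 122700001, 122800001 and 123000001, and chromosome 11 from 87900001. The 3 on chromosome 8 belong to 1 stretch: the window between them, from 122900001, had 9 MyoD, 14 NeuroD2, 6 chimera, 13 WC and 10 WCS sites, so it missed the limit for MyoD by 1 site. Beyond the stretch, the window from 123100001 had 4 MyoD and 5 NeuroD2 sites. Without the 6 windows, the NeuroD2 share of cluster sites remained 7.03 points above that elsewhere (4.24 to 9.94). In the cluster on chromosome 8 from 123000001, NeuroD2, with 19 sites in the window, overlapped 5 of the 11 MyoD sites. WCS overlapped 4, WC 3 and the chimera 2. The shares of NeuroD2 (45.5%) and WCS (36.4%) were above their medians over clusters, 30% each. Those of WC (27.3%) and the chimera (18.2%) were below theirs, 30% and 40%.

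In 1 window the chimeric proteins outnumbered both native factors. On chromosome 10 from 77200001 to 77300000 there were 15 chimera, 17 WC and 18 WCS sites, against 11 MyoD and 4 NeuroD2 sites. The other 6 clusters with at least 10 sites of each chimeric protein had 12 to 19 NeuroD2 sites. WC overlapped 10 of its 11 MyoD sites and the chimera and WCS 9 each, the highest share of WC in any cluster, whereas NeuroD2 overlapped 3. Of its 18 merged regions, 6 were held by MyoD and the chimeric proteins without NeuroD2, and 4 by the chimeric proteins alone. Its NeuroD2 sites had scores from 5.33 to 17.8 and its WCS sites from 6.05 to 65.9, each ranked in its own list. Whether reads map uniquely here was not tested.

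The adjacent pairs of clusters also differed. On chromosome 6 from 127900001 to 128100000 a pair held 28 MyoD, 36 NeuroD2, 18 chimera, 31 WC and 22 WCS sites, and NeuroD2 overlapped 13 of the MyoD sites. The chromosome 8 pair from 122700001 to 122900000 held 25 MyoD and 33 NeuroD2 sites with 17 overlapped, and the chromosome 6 pair from 91600001 to 91800000 held 21 and 25 with 8 overlapped. The pair on chromosome 10 from 79500001 to 79700000 was the one with fewer NeuroD2 than MyoD sites, 11 against 21, with 7 overlapped. The highest number of NeuroD2 sites, 19, was found in the chromosome 8 window from 123000001 and on chromosome 9 from 121200001 to 121300000. The chromosome 9 window also held 13 MyoD, 9 chimera, 16 WC and 15 WCS sites, and NeuroD2 overlapped 8 of its MyoD sites.

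The 10 cluster sites with the highest MyoD scores were all in the chimera list, 9 were in the NeuroD2 list, 8 in the WC list and 6 in the WCS list. For MyoD sites elsewhere in the top score bin, the chimera share was 65.7% and the NeuroD2 share 41.9%. WC had 49.4% and WCS 41.8%. That bin starts near a score of 24.2, whereas these 10 sites scored 168.7 or more, so it is no matched comparison. The strongest, on chromosome 5 from 121038169 to 121038850, scored 304.6 in the MyoD list and was in every list, with a score of 75.5 for the chimera, 61.1 for WC, 9.84 for NeuroD2 and 6.07 for WCS. The second, on chromosome 6 from 128028548 to 128029137, scored 289.2 and was also in every list, with 160.7 for the chimera and 10.8 for NeuroD2. The third, on chromosome 11 from 119486719 to 119487159, scored 280.1, was shared with the chimera at 63.5 and was absent from the NeuroD2, WC and WCS lists. On chromosome 19, the site from 6445985 to 6446414 had the highest chimera score in any cluster, 208.0, next to 5.03 for NeuroD2, and the site from 7132103 to 7132515 had 165.0 for the chimera and 5.03 for NeuroD2 and was not in the WCS list. The site on chromosome 6 from 91607962 to 91608757 was in every list, with 168.7 for MyoD, 89.2 for WC, 73.5 for WCS, 48.8 for NeuroD2 and 45.8 for the chimera. Scores of different lists depend on depth and on how each list was made, so they show no difference in binding strength between proteins.

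The tightest run of 5 MyoD sites spanned 4797 bp on chromosome 2, from 152560609 to 152565405. Its first site, with a MyoD score of 31.4, was in all 5 lists. The third and the fourth, with 10.1 and 45.2, lay on 1 and the same site of each other list, which scored 30.5 in the WCS, 24.0 in the WC, 16.8 in the NeuroD2 and 13.7 in the chimera list. The second and the fifth, with 11.0 and 5.69, were in the MyoD list alone. The 5 MyoD sites thus overlapped 2 sites of each other list.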

How the data were processed

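Of 12 ChIP-seq libraries in 6 groups, 5 groups have a deposited list of sites, 1 for both libraries of a group. The submitters' processing notes name mm9 and the tools BWA 0.7.5 and CASAVA 1.8.2. The peak caller, its filters and any pooling of libraries are not stated there. Every site carries the authors' deposited score, whose unit no header or label names; it was used to rank sites within a list. Depth is unknown.

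Windows of 100 kb with 10 or more MyoD sites were counted on 19 autosomes; the 1335 sites on chromosome X in the other lists were left out. An overlap is at least 1 shared base. Shares have exact Clopper-Pearson intervals and differences Newcombe intervals, at 95%, and no test was run. Named windows are the extremes of site number and of overlap with NeuroD2 and WC, and named sites the 10 with the highest MyoD scores and the tightest 5. The clusters, lists and rules were chosen with earlier results of these data known. The alternatives varied the overlap rule, list length, window, threshold, widths and comparison sites, the last also weighted by score or width. The overlap and window counts were tested on simulated data. Planned results on genes, E-boxes and proteins were not run, since no mm9 genome or annotation and no protein table were used. Counts and intervals were computed in Python 3.11.15 with scipy 1.17.1, pandas 2.3.3 and numpy 2.4.6, and plots drawn with matplotlib 3.10.9.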

Additional observations from a re-analysis of the deposited data

How the results depend on the processing

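The number of clusters was 59 with sites within 500 bases joined, 272 with 8 or more and 31 with 12 or more MyoD sites, 10 with windows of 200 kb and 20 or more sites, and 104 with windows shifted by 50 kb. The overlap difference between cluster and other MyoD sites was above 0 in 56 of 56 values over 14 settings, and 51 intervals lay above 0. The 5 others were those of the chimera and WC under the centre and width settings and of the chimera in windows of 200 kb. With centres within 100 bases it was 4.40 points for NeuroD2, 3.23 for WCS, 1.67 for WC and 0.400 for the chimera. Weighted to the width of cluster sites, an alternative chosen after seeing the data, it was 5.62, 4.32, 2.13 and 1.34 in the same order. With sites joined it was 9.35 for WC and 10.2 for WCS, and with windows of 200 kb 15.1 for NeuroD2, 9.06 for WC and 11.2 for WCS. The comparison with sites within 10 windows of a cluster and the removal of the 6 windows dense in all 5 lists were also chosen after seeing the data and moved no difference outside its interval.

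The percent of each list in the clusters, in the order NeuroD2, chimera, WC, WCS, was 2.93, 4.91, 3.18 and 3.43 with the 50% of each list with the highest scores, 1.55, 2.55, 1.68 and 1.90 with sites joined, 5.50, 8.79, 5.83 and 6.25 with 8 or more MyoD sites, 0.897, 1.38, 0.912 and 1.05 with 12 or more, and 0.524, 0.765, 0.522 and 0.557 with windows of 200 kb. With lists of equal length it was 2.91 for NeuroD2, 3.10 for WC and 3.28 for WCS. Another number of windows changes these percents by construction. In each of these settings the chimera had the highest percent of the 4 lists. The choice of windows by MyoD sites favours the chimera list in all of them, since it shares the most sites with MyoD. No paired analysis was possible because each group has 1 list for both of its libraries. The cause of these shifts was not tested, and without a known depth the number of sites missed in each list cannot be given.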
